A study of Mus musculus with 18 samples.

Results

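The comparison described here was that of BRE-GFP positive with BRE-GFP negative mesenchymal cells (MC), made from 6 of the 18 RNA-seq libraries of a study of the mouse aorta-gonad-mesonephros (AGM) region. The AGM is the part of the mid-gestation embryo in which blood stem cells first form in the wall of the dorsal aorta. Members were the libraries whose titles name the CD31-negative, c-Kit-negative gate, 3 positive and 3 negative for the reporter, taken as 3 pairs from the same culture. All came from C57BL6 mice carrying the BRE-GFP reporter, at embryonic day 11. The first pair was sorted from freshly dissected AGM. The second pair came from AGM explants cultured with BMP and Hedgehog, and the third from such explants with cyclopamine added, a plant alkaloid that blocks the Hedgehog signal transducer Smoothened. The other 12 libraries held endothelium-enriched cells (EC, CD31-positive and c-Kit-negative) and a CD31-positive, c-Kit-positive fraction that holds blood stem and progenitor cells (HPSC), from the same cultures and reporter fractions.

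BMPs are secreted ligands that bind paired type I and type II serine/threonine kinase receptors. These phosphorylate SMAD1, SMAD5 and SMAD9, which enter the nucleus with SMAD4 and switch on targets such as the Id genes and the inhibitory SMADs. The reporter places GFP under a BMP response element, so green cells are cells in which the pathway is or recently was active. The mesenchyme below and around the dorsal aorta is a mixed tissue: perivascular and smooth muscle precursors, stroma of the gonad and mesonephros, sympathetic neuroblasts and, laterally, cells of the muscle and cartilage lineages.

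The marker check of the gate went as follows. Pdgfra, a receptor of mesenchymal cells, stood at 178 to 854 CPM (counts scaled to the library total) over the 6 MC libraries, against 68.4 to 498 CPM in EC and 17.2 to 91.2 CPM in HPSC. Pecam1, which encodes CD31, was at 2.996 to 11.5 CPM in MC and 93.7 to 1683 CPM in EC. Cdh5, the endothelial cadherin, was at 0.874 to 4.25 CPM in MC and 43.3 to 729.7 CPM in EC. Kit mRNA was present in all MC libraries, at 20.9 to 187 CPM, a range that overlapped EC at 42.6 to 219.9 CPM and lay below HPSC at 449.9 to 1135 CPM. Within MC, Kit was at 73.3, 20.9 and 81.3 CPM in positive cells of the fresh, explant and cyclopamine cultures, against 99.5, 126 and 187 CPM in negative cells, lower in the positive library of each pair (log2 fold change -1.399 ± 0.55 SE, unadjusted p = 0.0246).

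Each combination of population, culture and fraction was 1 library, and the labels do not say that the cultures came from separate embryos, so p-values measure the spread between these libraries, which may be technical. Totals were 4547062 to 21972063 counts per MC library. The fresh positive library stood apart. It was the shallowest of the 6 and had 12028 genes with a count, against 16842 to 18816 in the other MC libraries. Of the 10080 genes with a mean of at least 10 CPM in the positive or negative MC libraries, 469 (4.65%) had 0 counts in it, against 0 to 4 genes in each of the other 5. Its median Spearman rank correlation with the other MC libraries was 0.812 across genes, against 0.944 to 0.959 for the others. The log2 ratio of positive over negative cells, computed as log2 of CPM + 5, had an interquartile range of 1.73 in the fresh pair, 0.573 in the explant pair and 0.387 in the cyclopamine pair. Each result below is therefore given culture by culture.

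**Figure D1:**
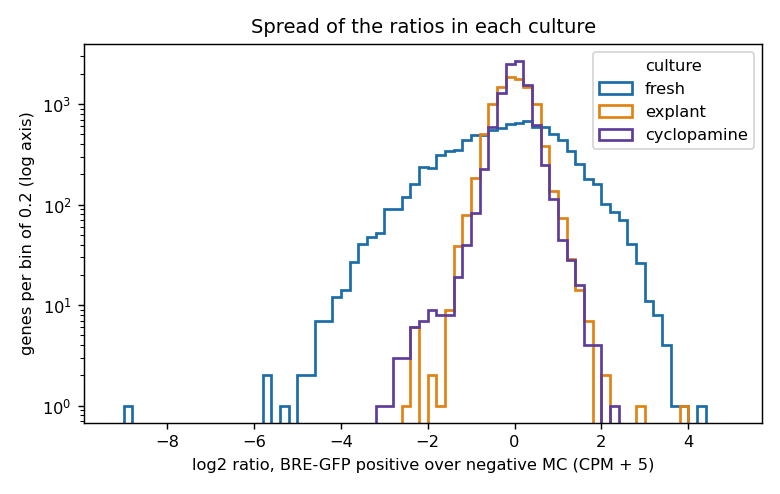
Histogram of the log2 ratio of BRE-GFP positive over negative MC, 1 line per culture, with the ratio on the x axis (CPM + 5) and genes per bin of 0.2 on a logarithmic y axis, over the 10080 genes with a mean of at least 10 CPM in a fraction. The fresh pair spreads far wider than both cultured pairs, with interquartile ranges of 1.73, 0.573 and 0.387 for fresh, explant and cyclopamine.

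In every culture, positive MC gave larger values for the sarcomeric actins Acta1 and Actc1 and the immediate early gene Fosb. Values were smaller in each pair for some red cell genes, Hemgn, Rhag, Slc4a1 and Gata1 among them. The far more abundant embryonic globins Hbb-y and Hba-x were lower in the fresh pair only. In explants the summed erythroid list was at 28358 CPM in positive cells and 15129 CPM in negative cells. Among the Id genes, which are BMP targets, Id1 and Id2 overlapped between the fractions, Id3 was higher in the positive library of each pair and Id4 was high in the fresh positive library alone. None of these differences passed the test over all genes: with 0 of 16231 genes (0%) at an adjusted p under 0.05 (edgeR quasi-likelihood F test, Benjamini-Hochberg, all 18 libraries), the fit called nothing. At an unadjusted p under 0.05 there were 22 higher genes (0.136%) and 48 lower genes (0.296%). The same fit by limma-voom called 0 genes, and DESeq2 called 2, Cd86 and Itgb2l, both lower in positive cells. The 6 MC libraries fitted alone gave 0 genes by edgeR and 12 by DESeq2. The higher of the 12 were Acta1, Actc1, Cryab, Cst9 and Tagln. The lower were Car2, Ltf, Mab21l2, Ngp, S100a8, S100a9 and Tfrc. When the 4 cultured MC libraries were fitted alone, a fit added after the data were seen, edgeR called 105 higher genes (0.734%) and 93 lower genes (0.65%) of 14314 tested. With only both fresh MC libraries left out, the other 16 libraries fitted together gave 0 genes and 29 at an unadjusted p under 0.05. The fit of 4 takes its spread from MC alone, over an explant and a cyclopamine pair. That spread rests on 1 residual degree of freedom per gene, moderated across genes with 51.0 prior degrees of freedom. Its small p-values therefore rest mostly on spread shared across genes, not on repeated libraries. In bulk libraries, fewer cells of a type and less RNA per cell cannot be told apart.

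A small set of genes was at least 2-fold apart on the CPM + 5 scale, in the same direction, in all 3 cultures: 7 higher genes (0.0694%) and 15 lower genes (0.149%) among the 10080. For comparison, all 3 positive values lay above all 3 negative ones for 355 genes (3.52%) and below them for 393 genes (3.9%). The higher ones were Cst9, Tmem8c, Cryab, Acta1, Actc1, Art3 and Fosb. The lower ones were Hemgn, Icam4, Ermap, Rhag, Rhd, Car2, Mab21l2, Adra2b, Pklr, Gata1, Epb4.2, Slc4a1, Acp5, Fgf10 and Dock9. In the fit of all 18 libraries the adjusted p of each was 1. All 22 passed in the fit of the 4 cultured libraries, with adjusted p of 2.31e-09 to 0.0116. In DESeq2 on the 6 MC libraries, Acta1, Actc1, Car2, Cryab, Cst9 and Mab21l2 passed, with adjusted p of 0.0155 to 0.0395. Neither fit is an independent check, because the same libraries also chose the genes. Just inside the limit lay Art3, with ratios of 1.099, 1.06 and 1.05 for fresh, explant and cyclopamine, and Dock9, with -1.003, -1.37 and -1.23. Just outside lay the immediate early gene Fos, with 1.004, 0.999 and 1.05, and the transferrin receptor Tfrc, with -1.47, -1.39 and -0.98.

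**Figure D2:**
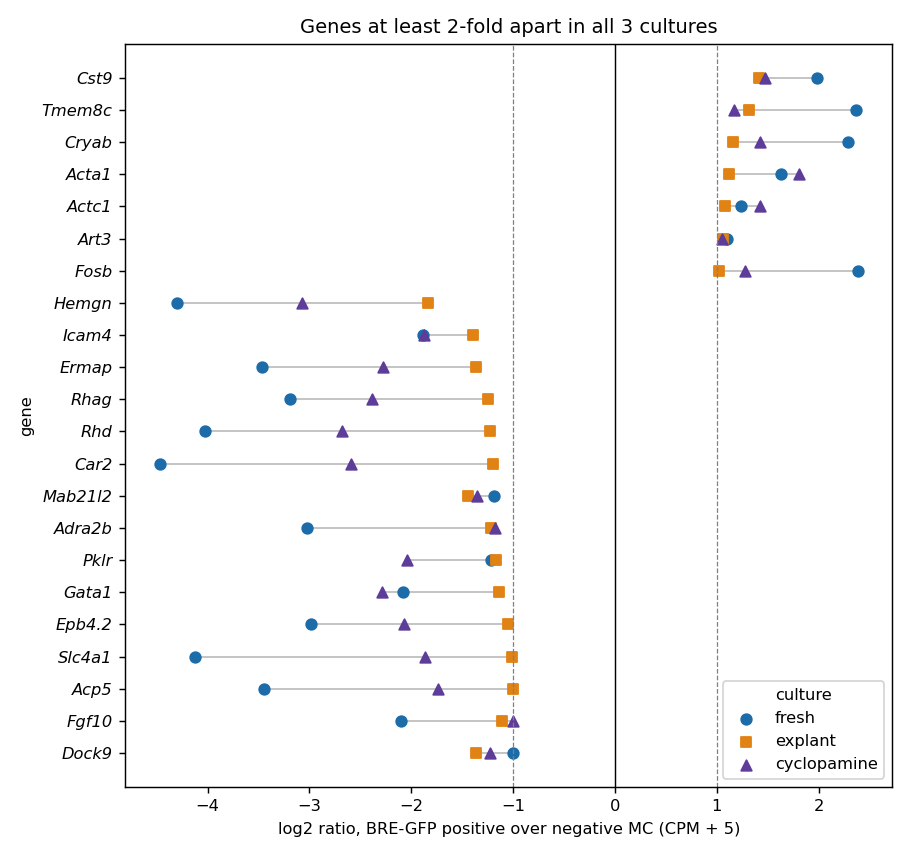
Log2 ratio of BRE-GFP positive over negative MC (x axis, CPM + 5) for the 22 genes at least 2-fold apart in all 3 cultures (y axis), 1 symbol per culture. Dashed lines mark 2-fold; for the red cell genes the fresh and cyclopamine symbols lie farther from 0 than the explant symbol, as for Hemgn at -4.31, -3.07 and -1.83 for fresh, cyclopamine and explant.

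Of the 7 higher genes, 3 belong to skeletal muscle. Acta1, the skeletal muscle actin (GRCm38 chr8:123891769-123894751, minus strand), was at 138, 152 and 141 CPM in positive cells of the fresh, explant and cyclopamine cultures, against 41.1, 67.5 and 36.9 CPM in negative cells. The 3 positive libraries were near each other and all above the 3 negative ones (log2 fold change 1.62 ± 0.903 SE, unadjusted p = 0.0952). Actc1, the cardiac actin that developing skeletal muscle also uses, was at 316, 342 and 636 CPM in positive cells and 131, 159 and 233 CPM in negative cells, again with no overlap (log2 fold change 1.27 ± 0.97 SE, unadjusted p = 0.213). Tmem8c, the membrane protein myomaker that fuses myoblasts, was at 69.5, 48.6 and 70.8 CPM in positive cells and 9.49, 16.6 and 28.7 CPM in negative cells. The promoters of both actins are shown because each holds a CArG box, the site of serum response factor, in the bases before its start site. They are the 250 bases before the RefSeq start in GRCm38.p6, 5′ to 3′ on the gene's strand, with the box in capitals, 73 bases upstream in Acta1 and 47 bases upstream in Actc1.
Acta1 (chr8:123894776-123895025, minus): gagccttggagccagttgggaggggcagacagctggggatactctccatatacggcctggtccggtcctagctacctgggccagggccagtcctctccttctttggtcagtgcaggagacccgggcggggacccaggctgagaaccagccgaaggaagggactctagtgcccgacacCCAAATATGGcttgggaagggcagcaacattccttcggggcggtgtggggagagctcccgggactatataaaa
Actc1 (chr2:114052876-114053125, minus): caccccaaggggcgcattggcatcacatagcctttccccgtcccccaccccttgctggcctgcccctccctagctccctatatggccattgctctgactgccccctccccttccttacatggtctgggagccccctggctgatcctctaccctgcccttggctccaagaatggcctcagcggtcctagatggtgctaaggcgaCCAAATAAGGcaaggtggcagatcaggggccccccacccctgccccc
A CArG box was searched by that name on both strands, on which it reads alike, and 482 of the 32851 promoters in the RefSeq table (1.47%) hold one in these bases. Of the 7 higher genes 5 had a promoter there and 2 of those matched, both actins, and among the skeletal muscle precursor genes 9 had one and the same 2 matched. Of the smooth muscle genes 10 had a promoter there and 1 matched, Myl9. Of the immediate early and heat shock genes 15 had one and 2 matched, Egr2 and Zfp36. A match is a description of the sequence only.

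Of 13 tested members of the skeletal muscle precursor list, 8 were higher in the positive library of every pair and 0 were lower in every pair, or 61.5% and 0%. Beside them stand 11.2% higher and 16.2% lower in all 3 cultures over all genes tested, and 15.1% and 15.5% over the 10080 genes with a mean of at least 10 CPM in a fraction. Their median log2 fold change was 0.50, against -0.18 over all genes tested, and their median log2 ratios were 0.36 in the fresh, 0.40 in the explant and 1.31 in the cyclopamine pair. The median log2 fold change moved with every MC library left out. It was 1.03 without the fresh positive and 1.06 without the fresh negative library, 0.95 without the explant positive and 0.94 without the explant negative library, and 0.21 without the positive and 0.19 without the negative cyclopamine library. Myog, the myogenin gene that drives myoblast differentiation, was at 72.7, 87.03 and 325 CPM in positive cells, against 50.002, 54.1 and 128 CPM in negative cells (log2 fold change 0.86 ± 0.75 SE, unadjusted p = 0.276). The highest value by far was that of positive cells from cyclopamine explants. Ttn, the giant spring protein of the sarcomere, was at 51.5, 48.98 and 139 CPM in positive cells and 38.97, 48.2 and 66.3 CPM in negative cells. Myod1, a master regulator of the muscle fate, was at 0, 5.36 and 21.5 CPM in positive cells and 3.02, 2.31 and 2.97 CPM in negative cells, lower in the fresh pair and higher in both cultured pairs. Its log2 fold change of 0.44 ran from -1.92 without the negative cyclopamine library to 2.03 without the negative fresh library. In the fit of the 4 cultured libraries 6 of the 11 members tested passed, all higher: Acta1, Actc1, Myod1, Myog, Tnnc1 and Tnnt1. Beside them stand 0.734% of all genes tested there that passed as higher. Pax3 and Pax7, which mark earlier muscle progenitors, were 0 to 3.62 CPM in all 6 libraries.

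Of 14 smooth muscle genes tested, 6 (42.9%) were higher in every pair and 2 (14.3%) lower. Over all genes tested 11.2% were higher and 16.2% lower in every pair, the second share near that of the list. The median log2 fold change was 0.48, and it was 0.23 without the fresh positive and 0.26 without the fresh negative library. Acta2, the smooth muscle actin, was at 2081, 1101 and 552 CPM in positive cells, against 556, 669 and 418 CPM in negative cells (log2 fold change 1.002 ± 0.43 SE, unadjusted p = 0.0349). The difference was widest in the fresh pair. Tagln, an actin-binding protein of smooth muscle, was at 766, 277 and 82.7 CPM in positive cells and 189, 80.1 and 41.7 CPM in negative cells (log2 fold change 1.602 ± 0.68 SE, unadjusted p = 0.0345). Its positive and negative ranges overlapped across cultures although each pair ran the same way, and it passed in the fit of the 4 cultured libraries (log2 fold change 1.38, adjusted p = 0.000658). Tpm1, a tropomyosin, was at 2289.6, 1262 and 895 CPM in positive cells and 1977, 763 and 702 CPM in negative cells. Synpo2, an actin-bundling protein, went the other way, at 0, 14.6 and 24.8 CPM in positive cells and 49.8, 59.3 and 43.8 CPM in negative cells, and passed as lower in the fit of the 4 cultured libraries (adjusted p = 0.00168). Of 8 pericyte genes tested, 4 (50%) were higher in every pair and 0 lower, beside the same 11.2% and 16.2%. Kcnj8, a potassium channel of pericytes, was at 25.2, 121 and 92.1 CPM in positive cells and 5.61, 79.4 and 76.3 CPM in negative cells.

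**Figure D3:**
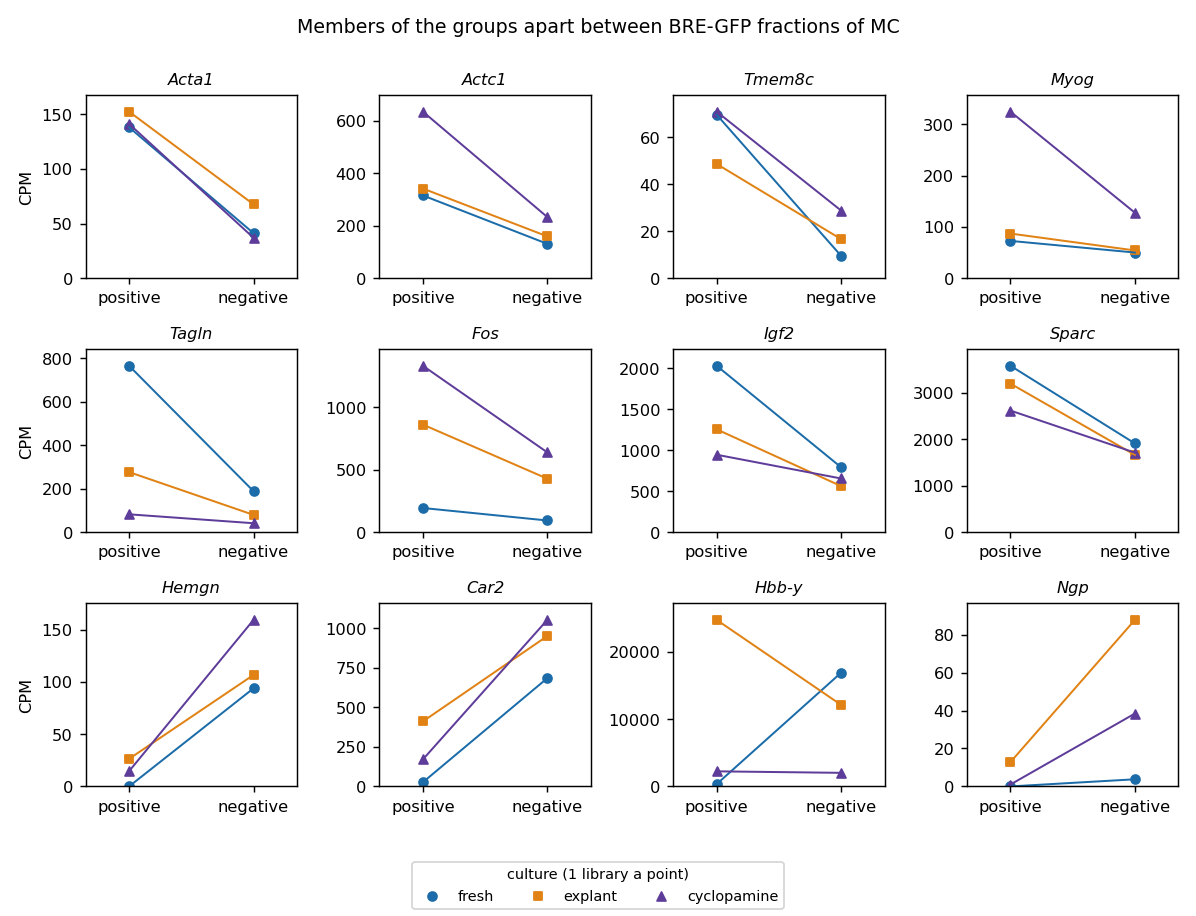
CPM (y axis, from 0) of 12 genes in BRE-GFP positive and negative MC (x axis), 1 point per library and lines joining the 2 libraries of a culture. Acta1 lies at 138, 152 and 141 CPM in positive cells and 41.1, 67.5 and 36.9 CPM in negative cells, while Hemgn and Ngp slope the other way and Hbb-y changes direction between cultures.

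BMP target genes are the endogenous counterpart of the reporter. Of 15 tested members, 3 (20%) were higher in all 3 cultures, beside 11.2% over all genes tested, and 0 lower, and 0 passed the test in any of the fits by edgeR. The median log2 fold change was 0.19, beside -0.18 over all genes tested. It was 0.05 without the fresh positive, 0.08 without the fresh negative and 0.32 without either explant library. Id1, a helix-loop-helix inhibitor and a classical direct target whose enhancer supplied BMP response elements for reporters, was at 73.1, 59.6 and 50.01 CPM in positive cells of the fresh, explant and cyclopamine cultures, against 64.9, 43.3 and 52.7 CPM in negative cells. The fractions overlapped (log2 fold change 0.19 ± 0.74 SE, 95% interval -1.42 to 1.79, unadjusted p = 0.807). Id2, of the same family, was at 1037, 1005 and 632 CPM in positive cells and 1017, 866 and 698 CPM in negative cells (log2 fold change 0.03 ± 0.28 SE, 95% interval -0.58 to 0.64). Id3, which also blocks helix-loop-helix factors, was at 1020.0, 508 and 474 CPM in positive cells and 823, 348 and 378 CPM in negative cells, higher in the positive library of each pair with overlapping ranges (log2 fold change 0.39 ± 0.37 SE, 95% interval -0.39 to 1.18, unadjusted p = 0.299). These intervals reach from below no difference to above it. The Id2 promoter is shown as that of an abundant Id target: it holds GGCGCC, a GC-rich SMAD1 and SMAD5 binding element, in capitals, 231 bases upstream (250 bases before the RefSeq start, GRCm38.p6, 5′ to 3′).
Id2 (chr12:25096093-25096342, minus): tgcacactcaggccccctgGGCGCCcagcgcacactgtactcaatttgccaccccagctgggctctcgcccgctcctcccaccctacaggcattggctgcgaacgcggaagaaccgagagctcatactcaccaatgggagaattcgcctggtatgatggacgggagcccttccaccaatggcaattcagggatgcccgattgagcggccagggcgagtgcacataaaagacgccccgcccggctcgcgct
GGCGCC reads alike on both strands, and 3149 of 32851 promoters (9.59%) hold it in these bases. Of the 15 BMP target genes 9 had a promoter in the table and 3 matched, Id2, Id4 and Smad9.

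Several further BMP targets differed in the fresh pair and not visibly in the cultured ones. Bambi, a decoy receptor, was at 76.9, 16.001 and 14.6 CPM in positive cells, against 15.9, 12.1 and 16.97 CPM in negative cells. Smad7, an inhibitory SMAD, was at 36.95, 12.8 and 9.95 CPM in positive cells and 11.6, 10.95 and 10.9 CPM in negative cells. Id4 was at 32.4, 9.601 and 5.25 CPM in positive cells and 5.18, 8.57 and 8.34 CPM in negative cells. All 3 were high in the fresh positive library alone, which is the library that stands apart, and its part in these values was not tested. Without the fresh pair, in the fit of the 4 cultured libraries, the log2 fold changes were 0.08 for Bambi, 0.03 for Smad7 and -0.26 for Id4, and those of Id1, Id2 and Id3 were 0.18, 0.03 and 0.43, with adjusted p of 0.652 or more. Smad6, the other inhibitory SMAD, was at 2.397, 4.24 and 2.22 CPM in positive cells and 3.58, 3.74 and 3.61 CPM in negative cells. Hey1, a Notch and BMP target, was at 24.6, 6.19 and 16.8 CPM in positive cells and 14.8, 5.78 and 16.1 CPM in negative cells, close within the cultured pairs and higher in positive cells of the fresh pair. Dlx5, a homeobox gene, was at 25.97, 12.5 and 7.42 CPM in positive cells and 12.6, 20.5 and 4.43 CPM in negative cells. Msx1 and Msx2, Atoh8 and Nog did not exceed 8.79 CPM in any MC library, and Smad9 was at 0, 4.94 and 6.15 CPM in positive cells and 8.57, 3.54 and 3.03 CPM in negative cells.

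**Figure D4:**
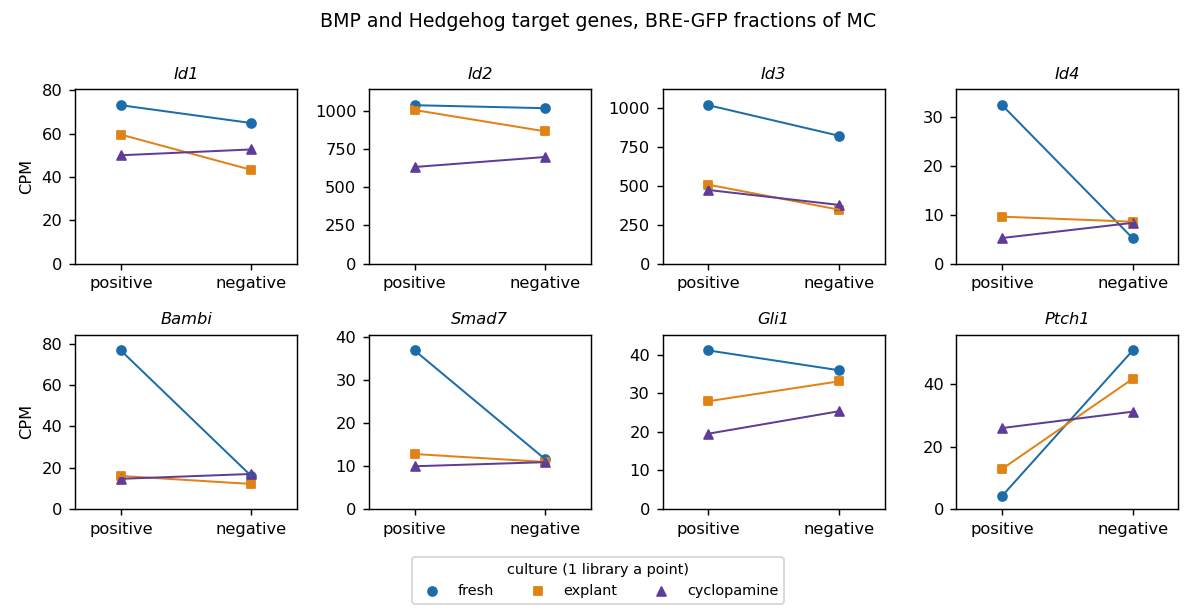
CPM (y axis, from 0) of 6 BMP target genes and of the Hedgehog targets Gli1 and Ptch1 in BRE-GFP positive and negative MC (x axis), 1 point per library and lines joining the 2 libraries of a culture. Id1, Id2 and Id3 lines are nearly level or slope slightly, Bambi, Smad7 and Id4 differ only in the fresh pair, and Ptch1 is lower in positive cells of each pair, at 4.19, 12.9 and 26.0 CPM against 50.9, 41.8 and 31.2 CPM.

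Among the BMP ligands, 1 of 10 tested (10%) was higher in all 3 cultures and 1 (10%) lower. Over all genes tested these shares were 11.2% and 16.2%. Bmp4, the ligand expressed below the aorta, was at 97.1, 58.996 and 26.5 CPM in positive cells and 82.5, 64.6 and 47.3 CPM in negative cells, lower in positive cells of both cultured pairs and higher in the fresh pair. Bmp5 was at 22.8, 35.2 and 40.6 CPM in positive cells and 45.1, 48.6 and 34.2 CPM in negative cells. Bmp7 was at 0, 8.49 and 7.05 CPM in positive cells and 7.21, 7.41 and 17.8 CPM in negative cells, and its fresh positive library had no counts. Gdf10, also called Bmp3b, was at 9.79, 36.5 and 40.5 CPM in positive cells and 9.37, 20.4 and 39.2 CPM in negative cells. Of the antagonists, 0 of 11 tested were higher and 1 (9.09%) lower in every pair, beside the same 11.2% and 16.2%. That one was Fst, follistatin, which binds activins and BMPs, at 0.1997, 11.8 and 9.77 CPM in positive cells and 17.9, 15.2 and 19.1 CPM in negative cells, with no overlap (log2 fold change -2.003 ± 2.204 SE, unadjusted p = 0.379). Fstl1, a follistatin-like secreted protein, was at 1544, 2652 and 2994 CPM in positive cells and 2278, 2758 and 2243 CPM in negative cells. Bmper, a secreted modulator of BMP that sits in both the target and the antagonist lists, was at 62.9, 151 and 159.9 CPM in positive cells and 116, 142 and 119.7 CPM in negative cells. Nbl1, a DAN-family antagonist, was at 26.8, 17.9 and 16.4 CPM in positive cells and 2.71, 8.84 and 20.6 CPM in negative cells.

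Of 18 BMP receptors and SMADs tested, 2 (11.1%) were higher and 4 (22.2%) lower in all 3 cultures, with a median log2 fold change of -0.16. These are near the 11.2% and 16.2% and the median of -0.18 over all genes tested. Bmpr1a, a type I receptor, was at 63.1, 78.8 and 119.9 CPM in positive cells and 127, 99.2 and 164 CPM in negative cells, lower in the positive library of each pair (log2 fold change -0.597 ± 0.74 SE, unadjusted p = 0.431). Smad5, a receptor-activated SMAD, was likewise at 136, 107 and 235 CPM in positive cells and 179.9, 175 and 245 CPM in negative cells (log2 fold change -0.39 ± 0.49 SE, unadjusted p = 0.444). Acvr2a, a type II receptor, was at 3.595, 13.98 and 32.1 CPM in positive cells and 23.7, 25.1 and 37.95 CPM in negative cells. Smad1 was at 53.7, 44.3 and 43.4 CPM in positive cells and 30.03, 25.3 and 48.6 CPM in negative cells, above its pair in the fresh and explant cultures and below it with cyclopamine. Zeb2, a SMAD-interacting repressor, was at 134, 83.3 and 135 CPM in positive cells and 61.7, 64.9 and 123 CPM in negative cells, higher in positive cells of each pair.

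Hedgehog targets tended lower in reporter-positive cells. Of 10 tested members 7 were lower and 0 higher in all 3 cultures, beside 16.2% and 11.2% over all genes tested, and the median log2 fold change was -1.52. It was -0.68 without the fresh positive and -0.65 without the fresh negative library, and -0.44 in the fit of the 4 cultured libraries. In the fresh positive library 3 of the 10 were at 0 counts, and 7 of the 10 had a mean of at least 10 CPM in a fraction. Median log2 ratios were -0.30 in the fresh pair, -0.40 in the explant pair and -0.30 in the cyclopamine pair. Ptch1, the Hedgehog receptor and a direct target of the pathway, was at 4.19, 12.9 and 25.999 CPM in positive cells of the fresh, explant and cyclopamine cultures, against 50.9, 41.8 and 31.2 CPM in negative cells, with no overlap (log2 fold change -1.82 ± 1.103 SE, unadjusted p = 0.121). The log2 ratio was -0.23 in cyclopamine explants, against -2.605 in the fresh and -1.39 in the explant pair, from 1 library each. Gli1, a transcription factor induced by the pathway, was at 41.1, 27.97 and 19.5 CPM in positive cells and 36.01, 33.1 and 25.4 CPM in negative cells, which overlapped. Hhip, which binds and sequesters Hedgehog ligands, was at 0, 30.9 and 5.38 CPM in positive cells and 30.4, 39.2 and 14.5 CPM in negative cells. Foxf2, a forkhead factor of gut and vessel mesenchyme, was at 20.8, 12.4 and 0.317 CPM in positive cells and 26.02, 23.5 and 8.16 CPM in negative cells, and passed as lower in the fit of the 4 cultured libraries (log2 fold change -2.38, adjusted p = 0.00373). It was the only one of the 9 targets tested there that passed. Foxc2 ran the other way in the fresh and explant pairs, at 75.3, 6.96 and 5.34 CPM in positive cells and 9.002, 2.72 and 11.4 CPM in negative cells. It was lower in positive cells only with cyclopamine. Of 14 pathway components 4 (28.6%) were higher and 1 (7.14%) lower in every pair, beside 11.2% and 16.2% over all genes tested. Smo, the transducer that cyclopamine binds, was the lower one, at 8.39, 26.3 and 35.3 CPM in positive cells and 43.1, 34.2 and 43.6 CPM in negative cells. Gli2 was at 78.5, 26.9 and 37.98 CPM in positive cells and 36.7, 24.3 and 35.9 CPM in negative cells.

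Immediate early genes respond within minutes to growth factors and to handling of tissue, and their list also held the heat shock genes Hspa1a, Hspa1b and Dnajb1. Of 17 tested members, 11 (64.7%) were higher in positive cells in each culture and 0 lower, beside 11.2% and 16.2% over all genes tested. The 11 were 10 of 14 immediate early genes and Dnajb1. The median log2 fold change over the 17 was 0.94. Fos was at 195, 863 and 1334 CPM in positive cells and 94.6, 429 and 640.2 CPM in negative cells, close to 2-fold in every pair although the levels differed widely between cultures (log2 fold change 1.04 ± 0.45 SE, unadjusted p = 0.0359). Klf6, a zinc-finger factor, was at 221, 324 and 366 CPM in positive cells and 93.3, 150.2 and 193 CPM in negative cells, without overlap (log2 fold change 1.09 ± 0.35 SE, unadjusted p = 0.00794). Egr1 was at 249, 254 and 418 CPM in positive cells and 39.5, 166 and 286 CPM in negative cells. Zfp36, which destabilises mRNAs of early genes, was far lower in the fresh positive library, at 1.198, 292 and 444 CPM in positive cells and 31.6, 123 and 224 CPM in negative cells. In the fit of the 4 cultured libraries 6 of the 17 members tested passed, all higher: Atf3, Fos, Fosb, Klf6, Nr4a1 and Zfp36. The share of all genes tested there that passed as higher was 0.734%.

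Imprinted growth genes had the most one-sided count of the 39 lists by share of members higher in every pair, with 12 of 15 tested (80%) higher, beside 11.2% over all genes tested, and 0 lower. The median log2 fold change was 0.56. H19, the maternally expressed noncoding RNA, was at 2391, 2064 and 1977 CPM in positive cells and 1256, 1349.8 and 1702 CPM in negative cells, without overlap (log2 fold change 0.59 ± 0.43 SE, unadjusted p = 0.192). Igf2, the paternally expressed growth factor beside it, was at 2028, 1254 and 945 CPM in positive cells and 792, 562 and 655 CPM in negative cells (log2 fold change 1.02 ± 0.43 SE, unadjusted p = 0.0321). Cdkn1c, a cell cycle inhibitor, was at 1070.4, 1128 and 771 CPM in positive cells and 377, 615 and 583 CPM in negative cells. Grb10 was at 1368, 699 and 2437 CPM in positive cells and 1256, 682 and 1508 CPM in negative cells, nearly level in the fresh and explant pairs. None of the 15 passed in the fit of the 4 cultured libraries, where their median was 0.40 and that of all genes tested -0.01.

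Of 23 extracellular matrix genes tested, 10 (43.5%) were higher and 0 lower in every pair, and 13 were mixed. All 23 had a mean of at least 10 CPM, where 15.1% of genes were higher and 15.5% lower in every pair. Of 19 mesenchymal genes 7 (36.8%) were higher and 1 (5.26%) lower. Sparc, a collagen-binding matrix protein, was at 3585, 3201 and 2621 CPM in positive cells and 1913, 1666 and 1715 CPM in negative cells, without overlap (log2 fold change 0.82 ± 0.41 SE, unadjusted p = 0.0645). Col1a2, a chain of collagen I, was at 2355, 870.3 and 1371 CPM in positive cells and 577, 614 and 999.6 CPM in negative cells, widest in the fresh pair (unadjusted p = 0.098). Col3a1 was at 2227, 673 and 1289 CPM in positive cells and 544, 496 and 869 CPM in negative cells (log2 fold change 1.004 ± 0.38 SE, unadjusted p = 0.0208). Dcn, the proteoglycan decorin, was at 298, 1991 and 1404 CPM in positive cells and 196, 1129.9 and 924 CPM in negative cells. Lum, the related lumican, was at 878, 1664 and 984 CPM in positive cells and 366, 836 and 651 CPM in negative cells. The receptor Pdgfra did not follow the matrix genes, at 178, 229 and 854 CPM in positive cells and 459, 452 and 727 CPM in negative cells. Among 37 collagen genes tested in the 4 cultured libraries, 1 passed, Col4a3, which was lower, and of the matrix and mesenchymal lists 0 passed there.

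Lower genes were led by the red cell lineage. Of the 15 lower genes, Gata1 is the master transcription factor of red cells, and Slc4a1 and Epb4.2 encode proteins of their membrane. Rhag, Rhd, Icam4 and Ermap are blood group surface proteins. Car2 is carbonic anhydrase, Pklr is red cell pyruvate kinase and Hemgn is a nuclear factor of blood cells. Hemgn (chr4:46393989-46413506, minus strand) was at 0, 26.4 and 14.6 CPM in positive cells, against 93.8, 107 and 159 CPM in negative cells, with no overlap (log2 fold change -4.205 ± 2.06 SE, unadjusted p = 0.0615). Its fresh positive library had 0 counts, where 3 counts would be 0.599 CPM. Car2 (chr3:14886273-14900770, plus strand) was at 26.2, 411 and 170.4 CPM in positive cells and 684, 951 and 1053 CPM in negative cells (log2 fold change -2.81 ± 0.64 SE, unadjusted p = 0.000682). Gata1 (chrX:7959260-7978071, minus strand) was at 0.599, 16.7 and 8.18 CPM in positive cells and 18.7, 42.8 and 59.4 CPM in negative cells (log2 fold change -2.88 ± 0.75 SE, unadjusted p = 0.00182). Every positive value of Hemgn, Car2 and Gata1 lay below every negative one, while Rhag and Pklr overlapped across cultures.

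The erythroid list did not move as a block. Of 13 tested members 6 (46.2%) were lower and 0 higher in all 3 cultures, beside 16.2% and 11.2% over all genes tested. Median log2 ratios were -3.19 in the fresh, 0.14 in the explant and -0.76 in the cyclopamine pair. The median log2 fold change of -2.24 moved with every MC library left out, to -0.88 without the fresh positive and -0.85 without the fresh negative library, and to between -4.14 and -3.94 without any 1 of the 4 cultured libraries. It was -0.84 in the fit of those 4 alone. In the fresh positive library 8 of the 13 were at 0 counts. The embryonic globins, whose counts far exceed those of the other members, ran lower in the fresh pair only. Hbb-y was at 338, 24739.9 and 2242 CPM in positive cells and 16892, 12110.2 and 2019 CPM in negative cells, and Hba-x at 155, 2600.3 and 277 CPM in positive cells and 6644, 1886 and 237 CPM in negative cells. The summed level of the list was 497, 28358 and 2808 CPM in positive cells of the fresh, explant and cyclopamine cultures, against 27603, 15129 and 3076 CPM in negative cells. In the fit of the 4 cultured libraries 5 of the 13 members tested passed, all lower, beside 0.65% of all genes tested there. Among the 5 were Epb4.2, Gata1, Rhag and Slc4a1. In the explant pair Hbb-y was higher and these 4 genes lower in positive cells.

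Granulocyte genes were lower too. Of 10 tested members 8 (80%) were lower, beside 16.2% over all genes tested, and 0 higher in all 3 cultures, with a median log2 fold change of -3.59, and their summed level was 12.3 to 37.6 CPM in positive cells and 27.4 to 273 CPM in negative cells. Ngp, a granule protein of neutrophil precursors, was at 0, 12.8 and 0.995 CPM in positive cells and 3.76, 87.8 and 38.4 CPM in negative cells (log2 fold change -4.28 ± 1.58 SE, unadjusted p = 0.0176). Ltf, lactoferrin, was at 0, 4.04 and 0.136 CPM in positive cells and 2.22, 46.4 and 30.02 CPM in negative cells (log2 fold change -5.59 ± 1.68 SE, unadjusted p = 0.00575). S100a8, a calcium-binding alarmin, was at 0.399, 6.96 and 1.09 CPM in positive cells and 4.19, 55.2 and 28.9 CPM in negative cells. The difference was small in the fresh pair, where the negative library held few of these mRNAs and 5 of the 10 members had 0 counts in the positive one. Only 4 of the 10 had a mean of at least 10 CPM in a fraction. In the fit of the 4 cultured libraries 7 of the 9 members tested passed as lower (Ngp log2 fold change -3.82, adjusted p = 9.47e-11). The share of all genes tested there that passed as lower was 0.65%. Ptprc, which encodes the pan-leukocyte surface protein CD45, was at 0.599, 2.37 and 3.17 CPM in positive cells and 11.5, 7.21 and 3.61 CPM in negative cells. Macrophage genes showed no single direction: of 14 tested, 2 (14.3%) were higher and 1 (7.14%) lower in every pair. Over all genes tested these shares were 11.2% and 16.2%. Their median log2 ratios were -0.55 in the fresh, 0.22 in the explant and 0.30 in the cyclopamine pair. Csf1r, the macrophage growth factor receptor, was at 41.3, 15.4 and 18.7 CPM in positive cells and 30.1, 10.2 and 3.26 CPM in negative cells. In the fit of the 4 cultured libraries their median was 0.58. Only Csf1r of the 14 passed there, as higher (log2 fold change 1.52, adjusted p = 0.044). The share of blood cells in the sorted fractions was not measured, and its part in these differences was not tested.

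Neural genes were higher in positive cells mainly in the fresh pair. Of 17 pan-neuronal genes tested, 10 (58.8%, beside 11.2% over all genes tested) were higher and 0 lower in every pair, with median log2 ratios of 2.15 in the fresh, 0.40 in the explant and 0.27 in the cyclopamine pair. Their summed level was 848 to 1588 CPM in positive cells and 273 to 823 CPM in negative cells. Gap43, a growth cone protein, was at 264, 140.3 and 123 CPM in positive cells and 36.6, 60.6 and 101 CPM in negative cells. Stmn2, a microtubule regulator of neurons, was at 159.8, 185 and 181 CPM in positive cells and 32.1, 76.2 and 149 CPM in negative cells. Of 13 sympathoadrenal genes 6 (46.2%) were higher and 0 lower in every pair. Dbh, which makes noradrenaline, was at 208, 75.8 and 69.5 CPM in positive cells and 33.7, 36.3 and 77.4 CPM in negative cells. Isl1, a homeobox gene of neurons and other tissues, was at 206, 128 and 105 CPM in positive cells and 201, 247 and 131 CPM in negative cells. In the fit of the 4 cultured libraries Ddc, the decarboxylase of amine synthesis, passed as higher (adjusted p = 0.00589), as did the glial gene Fabp7 (adjusted p = 0.00128).

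Of the remaining lists, few members passed in any fit. The shares below stand beside 11.2% higher and 16.2% lower in every pair over all genes tested. Of 21 cell cycle genes 0 were higher and 6 (28.6%) lower, with a median log2 fold change of -0.31, which was -0.18 without the fresh positive and -0.16 without the fresh negative library. Top2a, a topoisomerase of dividing cells, was at 794, 447 and 721 CPM in positive cells and 1366, 744 and 804 CPM in negative cells. Of 34 Hox genes tested, 4 (11.8%) were higher and 11 (32.4%) lower in every pair. Hoxa10 was at 25.2, 106 and 106 CPM in positive cells and 116, 128 and 121 CPM in negative cells, and Hoxd12 and Hoxd13 passed as lower in the fit of the 4 cultured libraries. Of 17 stromal factors of blood support 4 (23.5%) were higher and 1 (5.88%) lower, and Kitl, the ligand of Kit, was the lower one at 7.79, 46.3 and 127 CPM in positive cells and 81.6, 82.3 and 142 CPM in negative cells. Mdk, the growth factor midkine, was at 1358, 541 and 501 CPM in positive cells and 1079.8, 559 and 523 CPM in negative cells. Of 15 pan-endothelial genes 3 (20%) were higher and 0 lower, with a summed level of 79.3 to 257 CPM in positive cells and 79.2 to 80.9 CPM in negative cells. Counts higher and lower in every pair were 3 and 3 of 16 for TGF-beta genes, 0 and 2 of 10 for Wnt targets, 4 and 1 of 13 for Notch genes, 0 and 4 of 15 for FGF genes and 3 and 1 of 13 for retinoic acid genes. As shares these are 18.8% higher and 18.8% lower for TGF-beta, 0% and 20% for Wnt, 30.8% and 7.69% for Notch, 0% and 26.7% for FGF and 23.1% and 7.69% for retinoic acid, none with more than 4 genes behind it. Fgf10, a mesenchymal growth factor, was in the FGF list and among the 15 lower genes, at 0, 15.4 and 24.1 CPM in positive cells and 16.5, 39.04 and 53.2 CPM in negative cells.

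**Figure D5:**
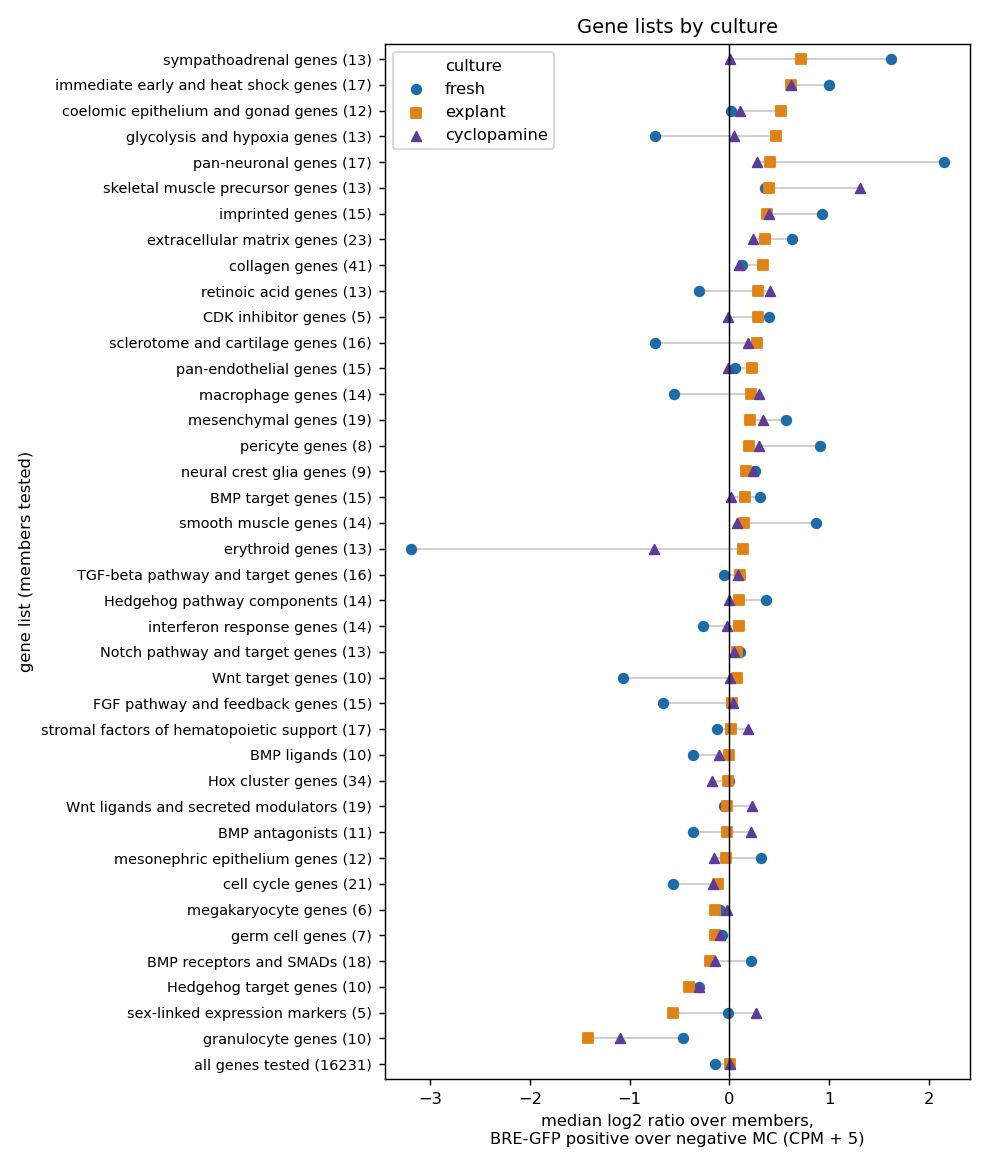
Median log2 ratio of BRE-GFP positive over negative MC (x axis, CPM + 5) over the tested members of each gene list (y axis, number tested in brackets), 1 symbol per culture, sorted by the explant value. Granulocyte, Hedgehog target and cell cycle genes are among the lists below 0 in all 3 cultures. Immediate early and heat shock, imprinted, skeletal muscle precursor and pan-neuronal genes are among those above it. BMP target genes also lie above 0, at 0.31, 0.16 and 0.02 for fresh, explant and cyclopamine.

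Within single cultures, where 1 library stood against 1 and no test was possible, the fresh pair had 1978 genes (19.3%) at least 2-fold higher and 2521 (24.6%) lower in positive cells among 10231 with enough signal. The explant pair had 157 higher (1.61%) and 147 lower (1.5%) of 9768, and the cyclopamine pair 107 higher (1.09%) and 125 lower (1.27%) of 9861. In the fresh pair the largest ratios upward were those of Resp18, Eln, Ptprn, Scn3b, Atf5 and Cartpt. Ptprn, a protein of dense-core secretory vesicles, had 328 counts (65.5 CPM) in positive cells and 3 counts (0.185 CPM) in negative cells. Eln, which encodes elastin of the vessel wall, was at 223 CPM in positive cells and 11.2 CPM in negative cells. The largest downward were Hbb-bh1, Hbb-y, Alas2, Hba-x, Zfp521 and Prom1, the first 4 of them red cell genes. Hbb-bh1, an embryonic globin, had 11 counts in positive cells and 57769 in negative cells.

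In explants 3 of the 6 largest ratios upward belonged to keratinocyte genes. Krt15, a keratin of stratified epithelium, was at 409 CPM in positive cells and 22.4 CPM in negative cells. Krtdap was at 55.2 CPM in positive cells and 3.197 CPM in negative cells, and Krt5 at 28.8 CPM in positive cells and 2.52 CPM in negative cells. Tm4sf1, Spp1 and Fxyd2 completed the 6. The largest downward in explants were Ltf, Ngp, Psmd5, Kit, S100a8 and Adamdec1. Psmd5, a chaperone of proteasome assembly, was at 16.3 CPM in positive cells and 104 CPM in negative cells. In cyclopamine explants the largest upward were the muscle genes Chrng, Actn2, Acta1 and Myod1 with Gpx3 and Spon1. Chrng, the fetal subunit of the muscle acetylcholine receptor, was at 43.8 CPM in positive cells and 5.48 CPM in negative cells. Downward they included Hemgn, Ngp, Ltf, Rhd and Car2.

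Whether the reporter difference in MC departed from that in EC and HPSC was tested as the MC log2 fold change minus the mean of both others. No gene of 16231 (0%) passed after adjustment, and 554 (3.41%) had an unadjusted p under 0.05; limma-voom called 0 and DESeq2 78, 10 of them higher and 68 lower. The 6 genes of lowest p all had a smaller or opposite reporter difference in MC. Klhl4 was at 14.2, 4.94 and 13.2 CPM in positive MC and 16.03, 9.45 and 26.002 CPM in negative MC, and the log2 fold changes were -0.698 ± 0.57 SE in MC, 2.69 in EC and 5.11 in HPSC (unadjusted p of the difference 3.07e-05). Plk2, a polo-like kinase, was at 88.5, 91.3 and 190.3 CPM in positive MC and 116, 119 and 157 CPM in negative MC, with log2 fold changes of 1.98 in EC and 2.84 in HPSC (unadjusted p 0.000326). Ece1, the endothelin-converting enzyme, and Nid1, a basement membrane protein, ran alike. Ece1 was at 83.1, 147 and 145 CPM in positive MC and 175, 191 and 144 CPM in negative MC, and Nid1 at 165, 213 and 277 CPM in positive MC and 208, 261 and 251 CPM in negative MC. Clec1a was at most at 1.34 CPM in the 6 MC libraries, and Gcom1 was at 0.399, 6.47 and 11.2 CPM in positive MC and 6.17, 9.18 and 8.34 CPM in negative MC.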

How the data were processed

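RNA-seq of 18 sorted populations was analysed, per the labels' protocols from RNA extracted with mirVana and amplified by a SMARTER protocol. The deposited tables hold whole-number read counts per gene symbol, with no normalization by the authors. Alignment and counting tools in the submitters' processing notes are TopHat, Cufflinks and HTSeq, with mm10 as the build. Their versions, the annotation and the strandedness were not given in the sources used here, so reads of overlapping and antisense genes cannot be told apart. HTSeq summary lines were left out of totals; reads at no annotated feature were 31.2 to 46.8% in MC.

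Groups and pairs came from the titles. The quasi-likelihood F test of edgeR 4.0.16 (R 4.3.3) was applied to TMM-scaled counts of the 18 libraries together, at a Benjamini-Hochberg adjusted p under 0.05, with 9 blocks of population and culture and a BRE-GFP term within each population. The model had 6 residual degrees of freedom and a common biological coefficient of variation of 0.88. This coefficient was 0.63 in the fit of the 6 MC libraries and 0.28 in that of the 4 cultured MC libraries. A gene was tested where 3 libraries reached 0.796 CPM, which is 10 counts in a library of median size; 16231 of 21881 symbols did. Fold changes are positive over negative, log2, with the SE of the fit. Within 1 culture, log2 ratios of CPM + 5 were taken without a test, among genes with at least 10 CPM in 1 of the 2 libraries. Fits were checked on simulated counts, with 50 genes changed at each size in positive MC. The simulated libraries shared the same expression profile, with no differences between populations or cultures. Each changed gene had a mean of at least 10 CPM and the same change in all 3 cultures. The data depart from this setting, so the numbers recovered need not hold for them. At 2-fold the fit of the 18 libraries recovered 0 of them. At 4-fold it recovered 4 under the pooled spread and 11 under the spread of MC, and at 16-fold 26 and 35. DESeq2 1.42.0 and limma 3.58.1 were alternatives, with other filters, scalings, pseudocounts and sets of libraries.

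Genes were named by rule: with fewer than 12 called in a direction, up to 12 apart by at least 2-fold in every culture, ranked by the smallest ratio; the 6 of lowest p for the difference between populations; and up to 6 each way within 1 culture, with at least 50 counts and 20 CPM. The BMP target list was described in full, and the other BMP lists and the Hedgehog lists by part of their members. The remaining lists were described by the 2 to 4 members of highest CPM and those that passed a fit. Acp5, Fgf10, Dock9, Kit, Kitl, Ptprc, Pdgfra, Pax3, Pax7 and the genes just outside the limit were added after their values were seen. Members and lists were chosen with earlier results of these data known. Gene coordinates are GENCODE M21 (GRCm38), and promoters are RefSeq GRCm38.p6. The GFP transcript was not analysed here, and some genes are not reported here.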

Additional observations from a re-analysis of the deposited data

Results flagged for a closer look

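Opposite reporter differences in 2 populations were found for 6 of the genes named above, in the sense that all 3 pairs of MC ran one way and all 3 pairs of EC or HPSC the other. Each difference was tested in the same edgeR fit, and none passed after adjustment over 16231 genes. Acta1 had a log2 fold change of 1.62 in MC and -1.45 in HPSC (difference 3.07 ± 1.33 SE, unadjusted p = 0.0371). Actc1 had 1.27 in MC and -1.99 in HPSC (difference 3.27 ± 1.5 SE, unadjusted p = 0.0476). Both actins were low in HPSC, at most 9.49 CPM. Mab21l2, a lower gene of every MC pair, had -1.42 in MC and 2.67 in EC (difference -4.08 ± 1.39 SE, unadjusted p = 0.0112). Adra2b, an adrenergic receptor, had -2.88 in MC and a fitted 9.73 in EC, where the 3 negative libraries had 0 counts and the fitted value is no bound (unadjusted p = 0.00952). Klhl4 had -0.70 in MC, 2.69 in EC and 5.11 in HPSC (unadjusted p = 0.0015 against EC and 1.28e-05 against HPSC). Clec1a had -1.67 in MC, 2.20 in EC and a fitted 10.4 in HPSC (unadjusted p = 0.0408 and 3.76e-05), from MC values of at most 1.34 CPM. The lowest adjusted p of these differences was 0.207, that of Klhl4 against HPSC.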

How the results depend on the processing

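The count of 0 genes in MC held with DESeq2 size factors in edgeR, both other filters, limma-voom, the share of reads at no feature as a covariate, the 6 MC libraries alone in edgeR and each of the 18 libraries left out in turn (0 to 0 called, 27 to 146 at an unadjusted p under 0.05). Without the replicate block of culture, that is, without the pairing, 0 genes were called and 77 had an unadjusted p under 0.05. DESeq2 called 2, DESeq2 on the 6 MC libraries 12 and, added after seeing the data, edgeR on the 4 cultured MC libraries 198. For the difference from EC and HPSC, DESeq2 called 78 and the table without a filter 1; leaving out each library gave 0 to 0. Genes apart in all 3 cultures numbered 17 higher and 31 lower with a pseudocount of 1 CPM, and 1 and 6 with 20 CPM. Over 2 pairs only, chosen after seeing the data, they numbered 19 and 25 (explant and cyclopamine), 24 and 47 (fresh and cyclopamine) and 49 and 82 (fresh and explant). Within a culture, a pseudocount of 1 CPM gave 265 higher and 243 lower genes in explants and 207 and 216 with cyclopamine; 20 CPM gave 999 and 1385 in the fresh pair, 42 and 39 in explants and 21 and 35 with cyclopamine. The cause was not tested. No direction reversed for the 22 genes apart in all cultures. They were chosen because every pair ran the same way, so this is no independent check. The fresh positive library has 4547062 counts, so 3 counts are 0.599 CPM there. Differences in the fresh pair between values near that level were not detectable at this depth.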

Other observations

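The fit of the 4 cultured MC libraries, added after the data were seen, also called genes outside the lists, named here after their values were seen. Ccl2, Icam1, Sele and Rapsn were among the higher ones. Ccl2, a monocyte chemokine, was at 163 and 45.8 CPM in positive cells of the explant and cyclopamine cultures, against 48.2 and 11.95 CPM in negative cells (log2 fold change 1.83 ± 0.26 SE, edgeR adjusted p = 4.77e-06). Icam1, an adhesion molecule, was at 24.3 and 19.6 CPM in positive cells and 10.3 and 3.09 CPM in negative cells (adjusted p = 0.00113). Sele, which encodes E-selectin, was at 14.8 and 14.5 CPM in positive cells and 5.78 and 1.28 CPM in negative cells (adjusted p = 0.00217). Rapsn, which clusters acetylcholine receptors at the muscle synapse, was at 23.4 and 17.5 CPM in positive cells and 5.71 and 3.44 CPM in negative cells (adjusted p = 0.000201). None of these was higher in all 3 cultures except Ccl2, whose fresh values were 26.6 CPM in positive cells and 13.01 CPM in negative cells.

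Slc25a37, Gfi1b, Nfe2 and Mmp8 were among the lower ones. Slc25a37, the mitochondrial iron importer, was at 29.2 and 33.2 CPM in positive cells of the explant and cyclopamine cultures, against 58.3 and 107 CPM in negative cells (log2 fold change -1.35 ± 0.26 SE, adjusted p = 0.000903). Gfi1b and Nfe2, transcription factors of red cells and megakaryocytes, were at 17.7 and 2.62 CPM and at 6.82 and 4.75 CPM in positive cells, against 26.2 and 33.2 CPM and 13.5 and 32.8 CPM in negative cells. Mmp8, a neutrophil collagenase, was at 6.05 and 0.271 CPM in positive cells and 19.7 and 14.7 CPM in negative cells (adjusted p = 0.000125).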
